A study of Mus musculus with 2 samples.

Results

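The Tshz, Zfhx and Sall genes encode large zinc finger transcription factors, and Dach1 encodes the mouse relative of the fly protein dachshund. These 10 genes were taken by symbol from a table of 24340 genes that holds the RNA-seq level of each gene in embryonic day 8.5 (E8.5) mouse trunk, and all 10 were in it. The libraries were 1 from Aldh1a2-/- embryos (Raldh2 knockout in the labels), which lack the enzyme that makes retinoic acid (RA) in trunk mesoderm, and 1 from wild-type embryos. Both came from trunk freed of the head, the heart and the tissue caudal to the newest somite, and the Aldh1a2-/- embryos came from matings of heterozygous parents, so the deletion was in every tissue. Levels are in FPKM (fragments scaled to transcript length and to sequencing depth), a scale on which genes of different length can be compared. With 1 library per genotype there is no replicate check, no test was run, and every difference below is one between these libraries.

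RA works by binding its nuclear receptors at RA response elements (RAREs), direct repeats of a 6-base half-site, and so switches genes on or off. Teashirt (the fly relative of Tshz), spalt (Sall) and dachshund were all found in the fly, where they pattern the trunk, the appendages and the eye. In mouse the Tshz factors act in the skeleton, ear and urinary tract, Sall1 in kidney and limb, and Sall4 in pluripotent and early embryonic cells, while Dach1 works as a transcriptional cofactor in the eye, limb and kidney. The Zfhx factors join many zinc fingers to several homeodomains and are best known in the nervous system and in muscle.

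Of the 10 genes, 9 were above a floor of 0.5 FPKM in both libraries (called measured), and of these 4 were lower and 1 was higher in Aldh1a2-/- trunk past log2 ratios of -0.85 and 0.85. Over all 9506 genes measured in this way 22.0% were lower and 23.6% higher. Tshz2 also had a lower level in Aldh1a2-/-, but was under the floor there. Zfhx4 and Dach1, of the measured genes, had the lowest ratios. The candidate RAREs listed for these genes are shown because Zfhx4 and Dach1 had these lowest ratios, and the capitals mark the half-sites. Elements listed near Tshz1 are not printed.
Dach1, DR5 (chr14:98035388-98035404, mm10): AGTTCAcacaaAGTTCA
Dach1, DR1 (chr14:98037394-98037406, mm10): GGGACAaAGGTCA
Zfhx4, DR5 (chr3:5388103-5388119, mm10): GGGTCAgcctgAGGTCA
DR5 and DR1 name direct repeats with 5 and 1 bases between the half-sites. The sequences were taken from the supplementary tables as written there, 5′ to 3′, and their strand is not given in the sources used here. By GENCODE M21 both Dach1 elements lie in intron 1 of 11, 134.1 and 132.1 kb downstream of the gene's start, and the Zfhx4 element lies in intron 5 of 10, 169.5 kb downstream of the start. None overlaps an exon of a coding transcript. In RA receptor binding data of earlier studies cited by the paper, the Dach1 DR5 lay in no peak in mouse embryoid bodies or embryonal carcinoma cells. The Zfhx4 DR5 lay in a peak in embryoid bodies only, and the Dach1 DR1 is not among the elements the paper looked up there. Both half-sites of the Dach1 DR5 are the same 6 bases and match AGGTCA at 5 of them, the half-sites of the Dach1 DR1 match it at 4 and 6 bases, and those of the Zfhx4 DR5 at 5 and 6. The promoter search below took AGTTCA and GGGTCA as half-sites too, but not GGGACA. These elements were drawn from chromatin peaks near genes that had already passed the same RNA cutoffs in these libraries, so their presence near Dach1 and Zfhx4 is not independent of the lower levels.

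A match was looked for in the promoters too. RefSeq promoters (300 bases around the start, GRCm38.p6) were at hand for 6 of the 10 genes, as 9 promoters, for Tshz2, Tshz3, Zfhx3, Sall1, Sall2 and Dach1. The half-site was searched as AGGTCA, or else as GGGTCA, or else as AGTTCA, or else as GGTTCA, on both strands, and a promoter with a repeat also counts as one with a half-site. Direct repeats of it with 5, 2 or 1 bases between them occurred in 0 of the 9. Over all 32851 promoters the shares with a match were 0.0974% for 5 bases, 0.268% for 2 and 0.222% for 1. A single half-site, which is common (43.7% of all promoters), occurred in 3 of the 9, those of Sall1, Sall2 and Tshz2. No match says only that these letters are not in this window.

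Aldh1a2 itself, which checks the labels, was at 11.7 FPKM in Aldh1a2-/- and at 128 FPKM in wild-type trunk. The FPKM summed to 759577 in the Aldh1a2-/- library and 846496 in the wild-type library. Low values of genes with a single transcript fell on whole steps, from which the depth is about 31.6 M fragments in Aldh1a2-/- and 30.1 M in wild-type. Of 9506 genes above 0.5 FPKM in both libraries (called measured), 22.0% were lower and 23.6% were higher in Aldh1a2-/- past the study's cutoffs of -0.85 and 0.85 in log2, with a median of 0.02. Genes listed at exactly 0 in Aldh1a2-/- but above 1 FPKM in wild-type numbered 1180, and 545 were the other way round, so a 0 was not read as absence. Trunk markers were present: 5 of 6 measured somite markers were lower in Aldh1a2-/- and 1 was higher, with summed FPKM of 53.63 in Aldh1a2-/- and 327 in wild-type, and Pax9 was at 0 in both. All 8 measured yolk sac endoderm markers and all 5 measured red blood cell markers were higher, with sums of 5174 and 5851 FPKM in Aldh1a2-/-, against 416.5 and 299.5 FPKM in wild-type. Amn and Gata1 were at 0 in wild-type. In bulk tissue, fewer cells of a type and less RNA per cell cannot be told apart.

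Of the 9 measured genes, 4 were lower in Aldh1a2-/- (Tshz1, Zfhx4, Sall2 and Dach1), 1 was higher (Sall4) and 4 stayed within the cutoffs (Tshz3, Zfhx3, Sall1 and Sall3). Their median log2 ratio was -0.24, beside 0.02 over all measured genes. The Tshz, Zfhx and Sall families therefore each had a gene past the lower cutoff and a gene within the cutoffs. The 4 lower genes are the members that the study listed as having an altered histone mark nearby, and that list took only genes past the RNA cutoffs in these same libraries, so their direction is not independent evidence.

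**Figure D1:**
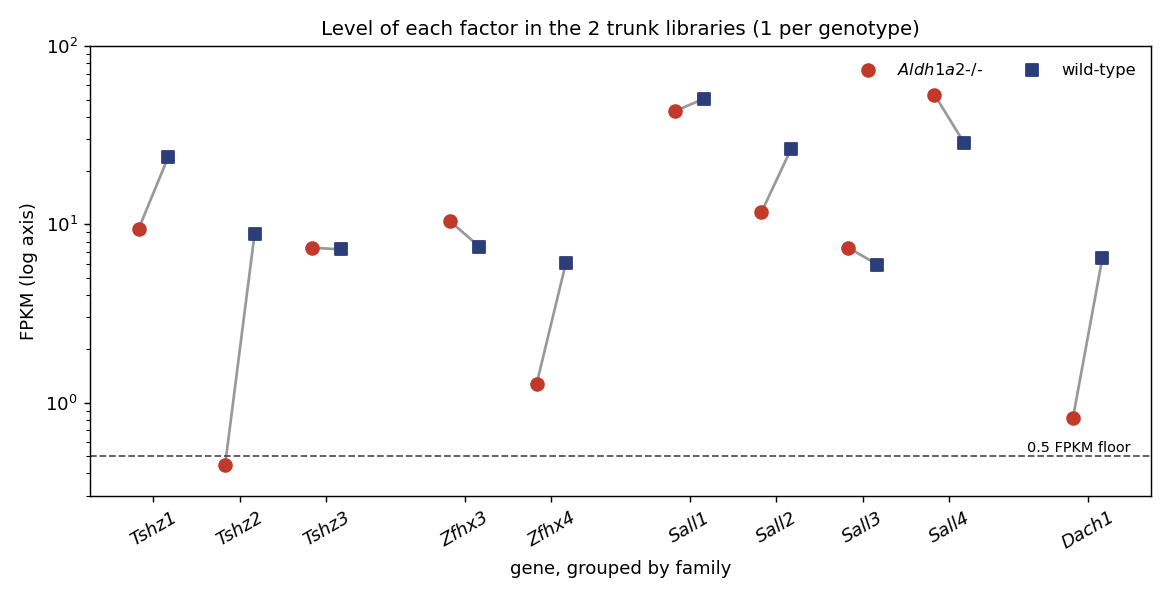
FPKM of the 10 genes (y, log axis) in the Aldh1a2-/- library (circles) and the wild-type library (squares), 1 library each, grouped by family; the dashed line is the 0.5 FPKM floor. The point of Tshz2 is below the floor at 0.449 FPKM in Aldh1a2-/-, and Sall4 is the gene with the highest Aldh1a2-/- level, 53.3 FPKM.

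How often a gene passed the cutoffs depended on its level, so the measured genes were ranked by mean level and split into 5 equal bins. Zfhx4 and Dach1 lie in bin 1, that of the lowest levels, where 37.4% of genes were lower and 30.8% higher in Aldh1a2-/-. Tshz3, Zfhx3 and Sall3, all within the cutoffs, lie in bin 2, with 27.6% lower and 29.5% higher. Tshz1 and Sall2 lie in bin 3, with 20.7% lower and 25.0% higher. Sall4 lies in bin 4, with 16.0% lower and 19.9% higher, and Sall1 in bin 5, with 8.05% lower and 12.7% higher. Among the 223 measured genes with a Zfp symbol, most of them other zinc finger genes, 34.1% were lower and 18.4% were higher. Ratios past the cutoffs were thus common at the mean levels of Zfhx4 and Dach1, which include their low Aldh1a2-/- values. These shares do not say how common ratios as low as theirs were.

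**Figure D2:**
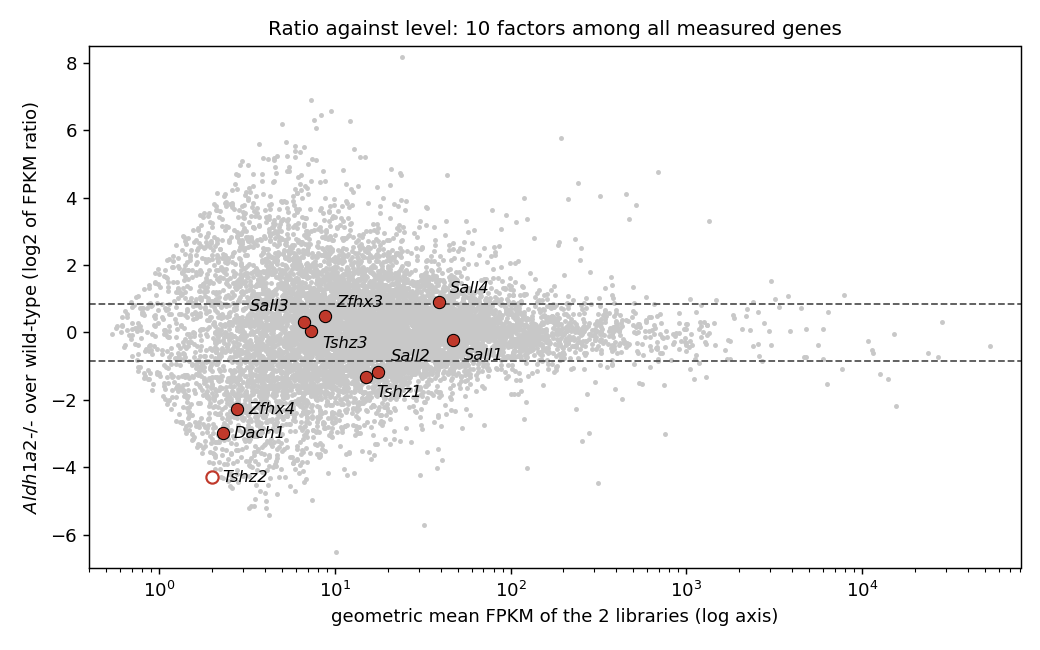
Log2 ratio of Aldh1a2-/- over wild-type FPKM (y) against the geometric mean of the levels in both libraries (x, log axis) for 9506 measured genes (grey) and the 10 genes named (red; Tshz2 is open because it is under the floor in Aldh1a2-/-). Dashed lines are the cutoffs, and the grey cloud widens toward low levels, where Dach1 (-2.98) and Zfhx4 (-2.26) lie.

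The Tshz genes encode the teashirt factors of the trunk, and their 3 genes split. Tshz1, needed for the middle ear, palate and axial skeleton, was at 9.43 FPKM in Aldh1a2-/- and 23.7 FPKM in wild-type trunk. Its log2 ratio was -1.33 (counting interval -1.42 to -1.25), a level 2.52-fold higher in wild-type. The gene lies on chromosome 18 from 84011627 to 84087706 on the minus strand (mm10, GENCODE M21).

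Tshz2, on chromosome 2 from 169633013 to 170071816, had the lowest ratio of the 10. It was at 0.449 FPKM in Aldh1a2-/- and 8.81 FPKM in wild-type, which is a log2 ratio of -4.29. At the estimated depths and the length of its longest coding transcript this is about 69 fragments in Aldh1a2-/- and 1297 in wild-type. The 95% exact binomial interval of the log2 ratio is -4.67 to -3.95. This interval and the other counting intervals cover counting error only. They treat fragments as independent, which amplified reads are not, so they may be too narrow. With 0.5 FPKM added to both values the log2 ratio is -3.29.

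Tshz3, which acts in ureter muscle and in neurons that drive breathing (chromosome 7, 36698118 to 36773553), was at 7.38 FPKM in Aldh1a2-/- and 7.23 FPKM in wild-type. Its log2 ratio of 0.03 has a counting interval of -0.09 to 0.15. So in wild-type the order was Tshz1, Tshz2, Tshz3, and in Aldh1a2-/- it was Tshz1, Tshz3, Tshz2. The summed Tshz level was 17.26 FPKM in Aldh1a2-/- and 39.76 FPKM in wild-type (log2 ratio -1.20), and Tshz3 made up 42.8% of it in Aldh1a2-/- and 18.2% in wild-type. A ratio of paralogs within 1 library does not depend on how the libraries are scaled. Tshz1 over Tshz3 was 1.28 in Aldh1a2-/- and 3.28 in wild-type, and Tshz2 over Tshz3 was 0.0609 in Aldh1a2-/- and 1.22 in wild-type.

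The Zfhx genes lay on opposite sides of 0, although Zfhx3 stayed within the cutoffs. Zfhx4, a zinc finger homeobox gene on chromosome 3 from 5218526 to 5415857, was at 1.27 FPKM in Aldh1a2-/- and 6.09 FPKM in wild-type. This is a log2 ratio of -2.26, with a counting interval of -2.40 to -2.13 from about 550 fragments in Aldh1a2-/- and 2510 in wild-type. With 1 FPKM added to both values it is -1.64. Zfhx3, also called Atbf1, a regulator of neuronal differentiation and of circadian rhythm (chromosome 8, 107942644 to 108961630), was at 10.4 FPKM in Aldh1a2-/- and 7.47 FPKM in wild-type, a log2 ratio of 0.48. Zfhx4 was the lower of the pair in both libraries, at 10.9% of the summed level in Aldh1a2-/- and 44.9% in wild-type. The sum itself was 11.67 FPKM in Aldh1a2-/- and 13.56 FPKM in wild-type.

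**Figure D3:**
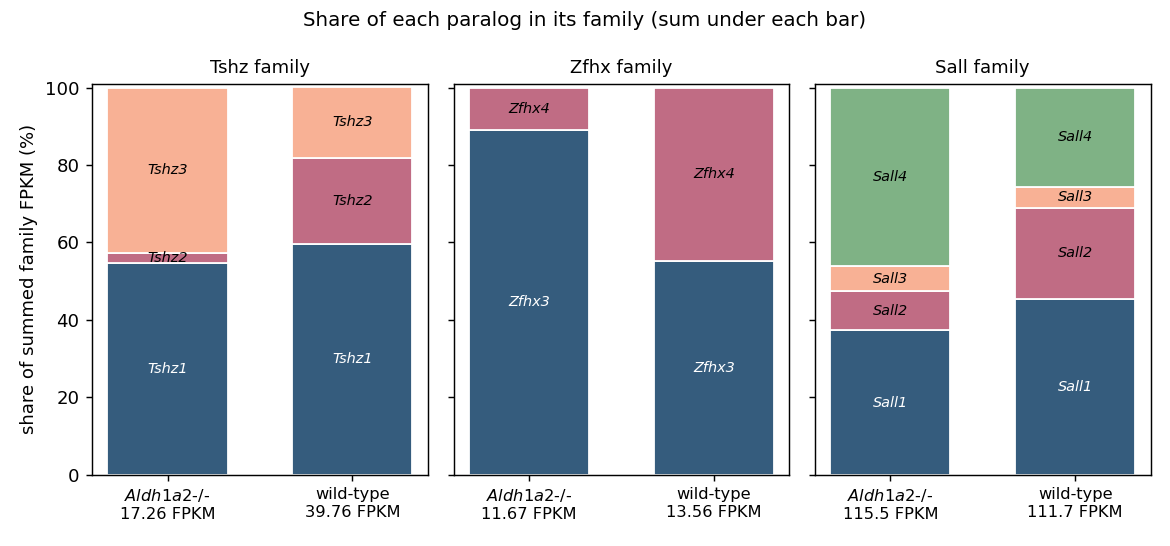
Share of each paralog in the summed FPKM of its family (y, percent) in the Aldh1a2-/- library (left bar) and the wild-type library (right bar), with the sum under each bar. Tshz3, Zfhx3 and Sall4 take larger shares in Aldh1a2-/- (42.8%, 89.1% and 46.1%) than in wild-type (18.2%, 55.1% and 25.7%).

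The Sall genes were the most abundant family, and their summed level was close in the libraries, at 115.5 FPKM in Aldh1a2-/- and 111.7 FPKM in wild-type (log2 ratio 0.05). Sall4, a zinc finger factor of pluripotent and early embryonic cells (chromosome 2, 168748332 to 168767943), was at 53.3 FPKM in Aldh1a2-/- and 28.7 FPKM in wild-type. Its log2 ratio of 0.89 is just past the cutoff of 0.85, and its counting interval of 0.84 to 0.95 holds the cutoff. On the upper quartile scale the ratio was 0.80, within the cutoffs.

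Sall2, known as a growth regulator in the neural tube and the eye, was at 11.7 FPKM in Aldh1a2-/- and 26.3 FPKM in wild-type (log2 ratio -1.17; chromosome 14, 52311172 to 52328762). Sall1, the gene of kidney and limb defects in Townes-Brocks syndrome in humans (chromosome 8, 89027235 to 89044162), was at 43.1 FPKM in Aldh1a2-/- and 50.7 FPKM in wild-type (-0.24). Sall3, the least abundant paralog of the family in wild-type and in Aldh1a2-/- (chromosome 18, 80966376 to 80986771), was at 7.40 FPKM in Aldh1a2-/- and 5.94 FPKM in wild-type (0.32). The leading paralog therefore differed: Sall4 made up 46.1% of the sum in Aldh1a2-/- and 25.7% in wild-type, and Sall1 made up 37.3% in Aldh1a2-/- and 45.4% in wild-type. Sall4 over Sall1 was 1.24 in Aldh1a2-/- and 0.566 in wild-type, whereas Sall2 over Sall1 was 0.272 in Aldh1a2-/- and 0.519 in wild-type.

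Markers of other cells also differed, and those named here were chosen after their values were seen. Pou5f1 and Nanog, pluripotency genes often found with Sall4, were at 16.8 and 2.52 FPKM in Aldh1a2-/- and at 0 in wild-type. Of the 8 pluripotency markers 5 were at 0 in both libraries, and Utf1 was at 1.87 FPKM in wild-type and 0 in Aldh1a2-/-. The list summed to 19.31 FPKM in Aldh1a2-/- and 1.867 FPKM in wild-type. Of 4 measured presomitic mesoderm markers 2 were higher and 2 lower. Tbx6 was at 18.1 FPKM in Aldh1a2-/- and 0 in wild-type, and Msgn1 at 0 in both. Of 7 measured lateral plate markers 3 were higher and 1 lower, and of 7 endothelial ones 4 and 0. Over all measured genes 23.6% were higher and 22.0% lower. The part of the cells that these lists mark, of the yolk sac and blood RNA given above and of the lower somite RNA in the levels of the 10 genes was not tested.

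Dach1, the dachshund factor that binds DNA and acts as a corepressor, was at 0.818 FPKM in Aldh1a2-/- and 6.43 FPKM in wild-type. This is a log2 ratio of -2.98 with a counting interval of -3.25 to -2.71, from about 130 fragments in Aldh1a2-/- and 974 in wild-type. With 0.5 or 1 FPKM added to both values it is -2.40 or -2.03. Dach1 lies on chromosome 14 from 97786853 to 98169765 on the minus strand. Its paralog Dach2 was at 0 in Aldh1a2-/- and 0.492 FPKM in wild-type, under the floor in both.

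Related genes were described from lists of the families and partners of these factors. Of 9 close relatives 7 were measured, 4 lower and 1 higher in Aldh1a2-/-, with a median of -0.87. Adnp, a zinc finger homeodomain protein of chromatin, was at 15.0 FPKM in Aldh1a2-/- and 43.5 FPKM in wild-type (log2 ratio -1.53), and its locus is shared in the table with Dpm1, so its reads may be split; the joint entry Dpm1-adnp was at 18.4 FPKM in Aldh1a2-/- and 16.2 FPKM in wild-type. Adnp2 was at 5.27 FPKM in Aldh1a2-/- and 14.6 FPKM in wild-type (-1.47). Zeb1, a repressor of epithelial genes, was at 8.75 FPKM in Aldh1a2-/- and 21.2 FPKM in wild-type (-1.28). Zhx3 was the higher one, at 13.0 FPKM in Aldh1a2-/- and 4.68 FPKM in wild-type (1.47), while Zhx2 was listed at 0 in Aldh1a2-/- and at 3.26 FPKM in wild-type.

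Of the TALE homeobox genes, whose fly counterpart homothorax works with teashirt, 7 of 9 were measured, and 3 of them were lower and 0 higher in Aldh1a2-/- (median -0.73). Meis1 was at 7.33 FPKM in Aldh1a2-/- and 45.8 FPKM in wild-type (-2.64).

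Sall proteins recruit the NuRD deacetylase complex, and of its 13 measured genes (14 in the list) 11 stayed within the cutoffs (median -0.24). The other two were lower: Mta3 was at 6.37 FPKM in Aldh1a2-/- and 23.5 FPKM in wild-type (-1.88), and Gatad2b at 13.3 FPKM in Aldh1a2-/- and 29.7 FPKM in wild-type (-1.16). Of 12 corepressor genes, CtBP among them, all measured, 5 were lower and 0 higher (median -0.49). Skil, a relative of the Dach proteins, was at 2.30 FPKM in Aldh1a2-/- and 9.60 FPKM in wild-type (-2.06). Tle1, a groucho corepressor, was at 7.23 FPKM in Aldh1a2-/- and 28.1 FPKM in wild-type (-1.96). Of all measured genes 22.0% were lower and 23.6% higher. Beside this, the lower count was 4 of 7 among the close relatives and 3 of 7 among the TALE genes. It was 2 of 13 in NuRD and 5 of 12 among the corepressors, and these lists are small.

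**Figure D4:**
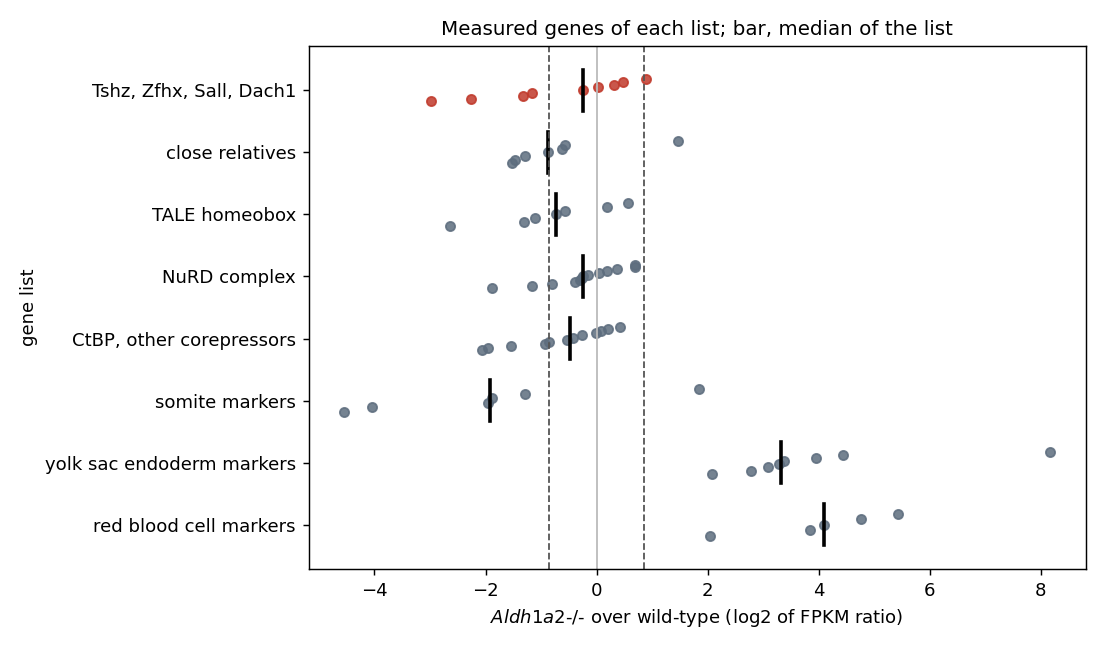
Log2 ratio of Aldh1a2-/- over wild-type FPKM (x) of each measured gene in 8 lists (rows); black bars are list medians and dashed lines the cutoffs. The members (red) have a median of -0.24, the somite markers one of -1.92, and the yolk sac and red blood cell markers lie wholly to the right of the upper cutoff.

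A shared feature of position concerns Sall, Tshz and Adnp genes, which lie together on chromosomes 2 and 18. The limits used here are those given with the FPKM values, and for Tshz2 and Tshz1 they end before the GENCODE M21 ends given above. On chromosome 2, Adnp, Sall4 and Tshz2 lie within 1.71 Mb (168180965 to 169888504), with 866 kb between Sall4 and Tshz2. On chromosome 18, Adnp2, Sall3 and Tshz1 lie in the same order within 3.96 Mb (80127135 to 84086562), with 3025 kb between Sall3 and Tshz1. In both stretches the Adnp gene and the Tshz gene had lower levels past the cutoff in Aldh1a2-/- (Tshz2 being under the floor there). The Sall gene between them had a ratio above 0, past the cutoff for Sall4 (0.89) but not for Sall3 (0.32). For Adnp the lower level rests on its own entry, since reads may be split with the joint entry Dpm1-adnp on the same interval (log2 ratio 0.19). Both stretches also hold a Kcng, an Nfatc and an Atp9 gene in the same order, without a shared call. Atp9b was higher (1.12) and Atp9a was within the cutoffs (-0.48). Kcng1 was higher (1.12), Kcng2 was at 0 in both libraries, and neither Nfatc gene was measured. The stretches were not lower as a whole. On chromosome 2, 6 of 12 genes were measured, 1 lower, 2 higher and 3 within the cutoffs, and on chromosome 18, 10 of 23 were measured, 3 lower, 2 higher and 5 within. The arrangement was noticed after the values were seen.

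**Figure D5:**
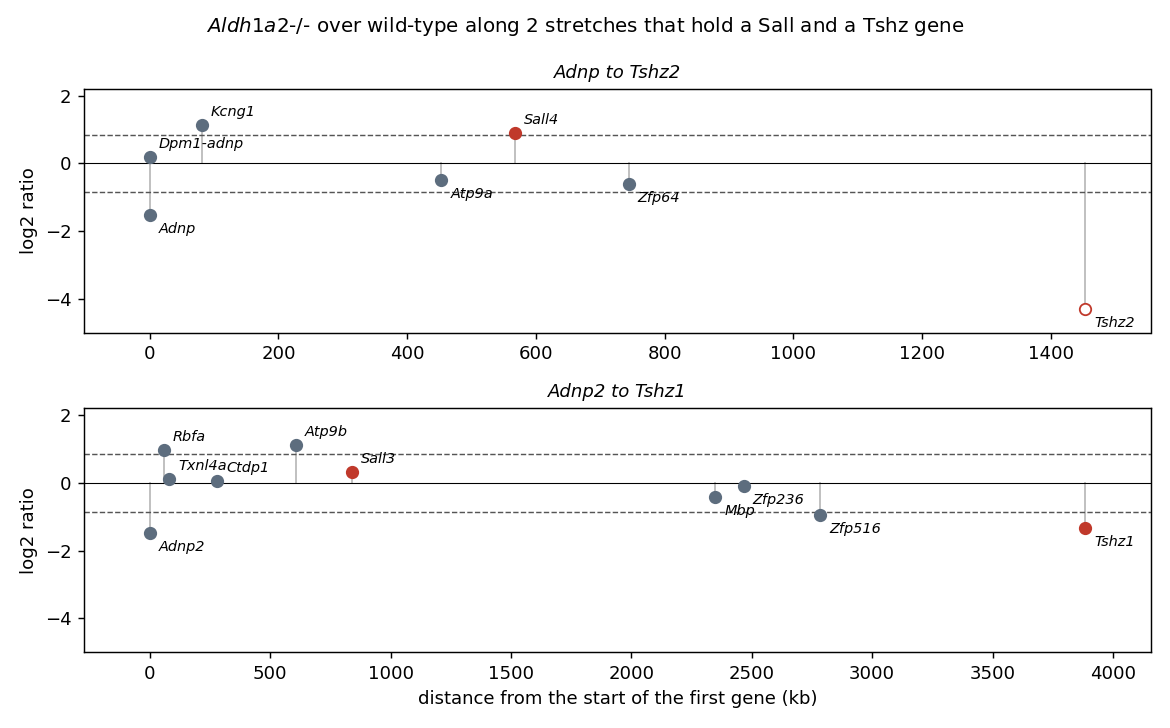
Log2 ratio of Aldh1a2-/- over wild-type FPKM (y) of measured genes against distance in kb from the start of the first gene (x) for the stretch from Adnp to Tshz2 (top) and that from Adnp2 to Tshz1 (bottom). Members are red, Tshz2 (-4.29) is open because it is under the floor, and Sall4 (0.89) and Sall3 (0.32) lie above 0. The measured genes next to Sall4 are Atp9a (-0.48) and Zfp64 (-0.60), and those next to Sall3 are Atp9b (1.12) and Mbp (-0.41).

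The nearest gene on each side, by the gene limits given with the FPKM values, gave 20 flanking genes. Of these 8 were measured, 3 lower, 3 higher and 2 within the cutoffs. Over all 9506 measured genes 22.0% were lower and 23.6% higher. The lower flanking genes lie beside lower members. Mzt1, a gene of the microtubule-nucleating complex 864.8 kb from Dach1, was at 1.83 FPKM in Aldh1a2-/- and 20.0 FPKM in wild-type (-3.45). Tox4, 6.1 kb from Sall2, was at 5.14 FPKM in Aldh1a2-/- and 12.1 FPKM in wild-type (-1.24). Pex2, a peroxisome gene 144.3 kb from Zfhx4, was at 6.31 FPKM in Aldh1a2-/- and 12.0 FPKM in wild-type (-0.93).

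Zadh2, only 1.6 kb from Tshz1, stayed within the cutoffs at 3.56 FPKM in Aldh1a2-/- and 5.81 FPKM in wild-type (-0.71). The higher ones flank members within the cutoffs: Atp9b beside Sall3 (1.12), Zfp507 beside Tshz3 (1.06) and Tox3 beside Sall1 (0.90). Zfp64 beside Sall4 was at -0.60. With 8 genes in 1 library per genotype these values are a description. GENCODE M21 places 18 other genes over the intervals of 6 of the members, 10 of them on the opposite strand, and the 5 that are in the table were at 0 in both libraries. Among these 5, AY702102 (over Tshz2) and Lncbate1 (over Zfhx3) also count as flanking genes above, where the limits of the members are shorter. Whether the authors' counting used strand is not given in the sources used here.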

How the data were processed

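RNA of trunk tissue from E8.5 Aldh1a2-/- and wild-type mouse embryos had been sequenced as single reads; the methods describe 2 trunks of each genotype, and the labels list 1 sample of each. The deposited values are FPKM, computed by the authors against mm10, in 1 table that lists 24340 genes and both libraries. The processing notes name STAR, Cufflinks and Cuffdiff, and the paper's methods name TopHat and edgeR, without versions. The labels describe both a total RNA kit and poly(A) selection. In the copy used here 1 line was empty. The fold changes, test statistics, p-values and q-values of the authors' own comparison were not used. Ratios (Aldh1a2-/- over wild-type, log2, nothing added) were formed where both values exceeded 0.5 FPKM and called at -0.85 and 0.85. Depth came from genes with 1 transcript, over transcript length less 200 bases: 14 of 15 low values in Aldh1a2-/- and 21 of 22 in wild-type were whole within 0.1 fragment. Intervals are exact (Clopper-Pearson) at 95%. Named genes are all members, Aldh1a2, up to 4 measured genes of each related list with the largest absolute ratio, and flanking or overlapping genes; Zhx2, Dach2 and the single marker genes were named after their values were seen. Members and lists were chosen with earlier results of these data known. The calling step was tested on simulated data. Alternatives were other floors, pseudocounts, scalings and cutoffs. Python 3.11.15, numpy 2.4.6, pandas 2.3.3, scipy 1.17.1 and matplotlib 3.10.9 were used. The ChIP-seq data were not analysed here, and some genes of the lists are not reported here.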

Additional observations from a re-analysis of the deposited data

How the results depend on the processing

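The 4 lower genes became 2 over genes above 5 FPKM in both libraries, since Zfhx4 and Dach1 are then left out, 3 above 1 FPKM, and 5 with Tshz2 above 0.1 FPKM or with a pseudocount of 0.5 and no floor. The 1 higher gene, Sall4, became 0 with upper quartile scaling (0.80) and with cutoffs of -1 and 1; its ratio ran from 0.80 to 1.05. The median of the members was -0.70 above 0.1 FPKM, 0.03 above 5 FPKM and -0.08 on the TPM scale. TPM scaling moved the median of all measured genes to 0.18, with 19.0% lower and 27.5% higher. Of the single ratios under alternatives, 66 stayed within their counting interval and 24 did not. A changed floor alone leaves a ratio as it was, so part of the 66 was fixed in advance. Only Sall4 crossed a cutoff, in 1 of 10 alternatives, which include such floors. For Tshz3 the sign of its small ratio changed (-0.07 to 0.19). With 1 library per genotype, spread between embryos cannot be given. No paired analysis was possible because each genotype has 1 library.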
